A study of Mus musculus with 2 samples.

Results

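The lysosomal hydrolases and the proton pump that acidifies the lysosome were examined in laser-captured liver of PiZ mice. The set holds 48 genes, chosen by name for their lysosomal role, with earlier results of these data known. Of these, 45 had a probe set (the probes of 1 transcript cluster, reported as 1 value) that named that gene alone, out of 30142 genes so named on the array. All 45 had a mean log2 signal above the floor of 4.76 used below, as did 15023 genes in all. Each of the 45 was read by 1 probe set, so no second probe set checks any of them. Ctsd (cathepsin D) and Glb1 (beta-galactosidase) were read only by probe sets that also name another gene, and Atp6v0c, the proteolipid c subunit of the pump, was not analysed here.

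PiZ mice are a C57BL/6 transgenic strain that carries the human gene for the Z variant of alpha-1-antitrypsin (ATZ) under its own human promoter. Both groups carry this transgene, and no group lacks it. Untreated animals 3 months old, on standard chow, supplied both. One group was hepatocyte area that held globules of the mutant protein, and the other was globule-free area, both recognised by Cresyl Violet staining of frozen sections. Each group was 1 array of RNA pooled from 2 mice, so neither shows the spread between animals. Areas cut by morphology can include cells that lie between hepatocytes. No test was possible with 1 array per group: all differences below are between 2 arrays and have no replicate check. The labels do not say whether the same mice supplied both pools. Where 2 log2 signals are given as 1 against another, the globule-containing area comes first. The comparison addresses how hepatocyte areas with globules differ from areas without them.

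Lysosomes degrade protein, glycan and lipid delivered by endocytosis and autophagy, with hydrolases that work in an acidic lumen. The vacuolar ATPase (V-ATPase) makes that acid: its V1 sector splits ATP in the cytosol and its V0 sector carries protons across the membrane. In liver, autophagy and lysosomes are a known route for disposal of polymerised ATZ, beside the proteasome route for the soluble form. Many lysosomal promoters hold the E-box type element called CLEAR, which the transcription factor TFEB binds.

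The promoters of the members are shown first, because this element is a feature apart from function that some of them, though not most, share. RefSeq start sites (GRCm38.p6) gave a window of 250 bases before and 50 after the start for 38 of the 48 members and for 27025 genes in all. The E-box core CACGTG, which is its own reverse complement, stood in 15 of the 38 (39.5%), against 20.5% of 88 other lysosome genes with a window and 8.09% of all genes. The longer palindrome TCACGTGA, of the CLEAR type and holding that core, stood in 7 of 38 (18.4%), against 9.09% of those 88 and 1.12% of all genes. Windows of 30 bases around it are given here 5′ to 3′ on the strand of the gene, with the palindrome in capitals and its first base counted from the start site.

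Atp6v0e, from base 3, chr17:26676387-26676416, plus strand: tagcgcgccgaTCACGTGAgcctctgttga
Atp6v1a, from base -132, chr16:44139373-44139402, minus strand: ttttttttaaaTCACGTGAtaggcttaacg
Gla, from base -228, chrX:134601215-134601244, minus strand: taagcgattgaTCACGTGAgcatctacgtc
Gla, from base -195, chrX:134601182-134601211, minus strand: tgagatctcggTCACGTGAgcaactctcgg
Atp6v0d1, from base -4, chr8:105566050-105566079, minus strand: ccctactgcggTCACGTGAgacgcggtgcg
Ctsa, from base -13, chr2:164833749-164833778, plus strand: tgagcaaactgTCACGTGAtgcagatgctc
Mcoln1, from base -46, chr8:3500462-3500491, plus strand: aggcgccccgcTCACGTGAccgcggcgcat
Ctsd, from base -99, chr7:142387908-142387937, minus strand: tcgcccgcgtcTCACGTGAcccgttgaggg

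Ctsa held another copy from base 5, which begins at the end of the stretch printed and runs past it. Lamp1, which encodes the main glycoprotein of the lysosomal membrane, held no such palindrome but the most copies of the core of any member. Its 100 bases before the start, with all 4 cores in capitals, follow.

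Lamp1, chr8:13159061-13159160, plus strand: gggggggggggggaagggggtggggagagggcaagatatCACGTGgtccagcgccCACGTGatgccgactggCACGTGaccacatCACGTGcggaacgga

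These matches are a description of the letters and not of factor binding. Among measured members with a promoter window, those with and without the core had similar medians, and no test was made. The 13 measured members with CACGTG had a median log2 difference (globule-containing minus globule-free) of 0.43, from -0.24 to 1.87. The 22 measured members without it had a median of 0.39, from -1.52 to 5.08. Atp6v0d2, Cstb, Ctse, Atp6v1b2 and Asah1, each at least 2-fold higher, had no promoter window and are in neither group. The palindrome stood both in Atp6v0e, 3.66-fold higher in globule-containing areas, and in Ctsa, whose signals were 10.56 and 10.55. A letter string of the ETS factor type, GAGGAAGT (reverse complement ACTTCCTC), stood in 4 of 38 members (10.5%), in 1.14% of the 88 other lysosome genes with a window and in 3.69% of all genes. The 4 were Ctss, Gusb, Gla and Ctsc. Ctss and Ctsc hold the highest and the lowest difference among members with a promoter window, while Gusb and Gla differed by 0.76 and 0.66. The motifs were chosen after values or sequences were seen, so this describes these 4 genes and tests nothing. Their windows are printed in the same way, with the match in capitals.

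Ctss, from base -2, chr3:95526773-95526802, plus strand: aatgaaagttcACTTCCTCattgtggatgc
Gusb, from base 38, chr5:130003000-130003029, minus strand: atccaggacttcaagcgACTTCCTCtttct
Gla, from base -148, chrX:134601135-134601164, minus strand: tgagatgccgcACTTCCTCctcctttggaa
Ctsc, from base -151, chr7:88277923-88277952, plus strand: gtcactaactaACTTCCTCaggccacctcg

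Taking the members together, globule-containing areas had higher signals for a subset of them. A difference of 2-fold or more towards the areas with globules was found for 12 of 45 members (26.7%), beside 6.47% of all genes above the floor. In the other direction 2 members (4.44%) reached 2-fold, beside 5.26% of all genes, and 31 members stayed within it. The 12 were Atp6v0d2, Ctss, Cstb, Psap, Atp6v0e, Hexa, Ctsl, Atp6v0a1, Ctse, Atp6v1b2, Asah1 and Ppt1, and the 2 were Ctsc and Gm2a. Because the members were chosen with earlier results of these data known, these shares describe the set and test nothing. Among the 89 other lysosome genes above the floor, described below, the share higher was 13.5%. The members' median difference was 0.45, against 0.05 over all genes. A positive difference of any size was seen for 34 of 45 members (75.6%) and for 54.5% of all genes. The members were bright, with a median mean signal of 9.67 against 6.68 over all genes above the floor. With the floor raised to 6.70, the 75th percentile of probe sets naming 1 gene, 12 of 40 members (30%) were higher by 2-fold or more, beside 8.59% of all genes, and 2 (5%) lower, beside 8.01%.

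**Figure D1:**
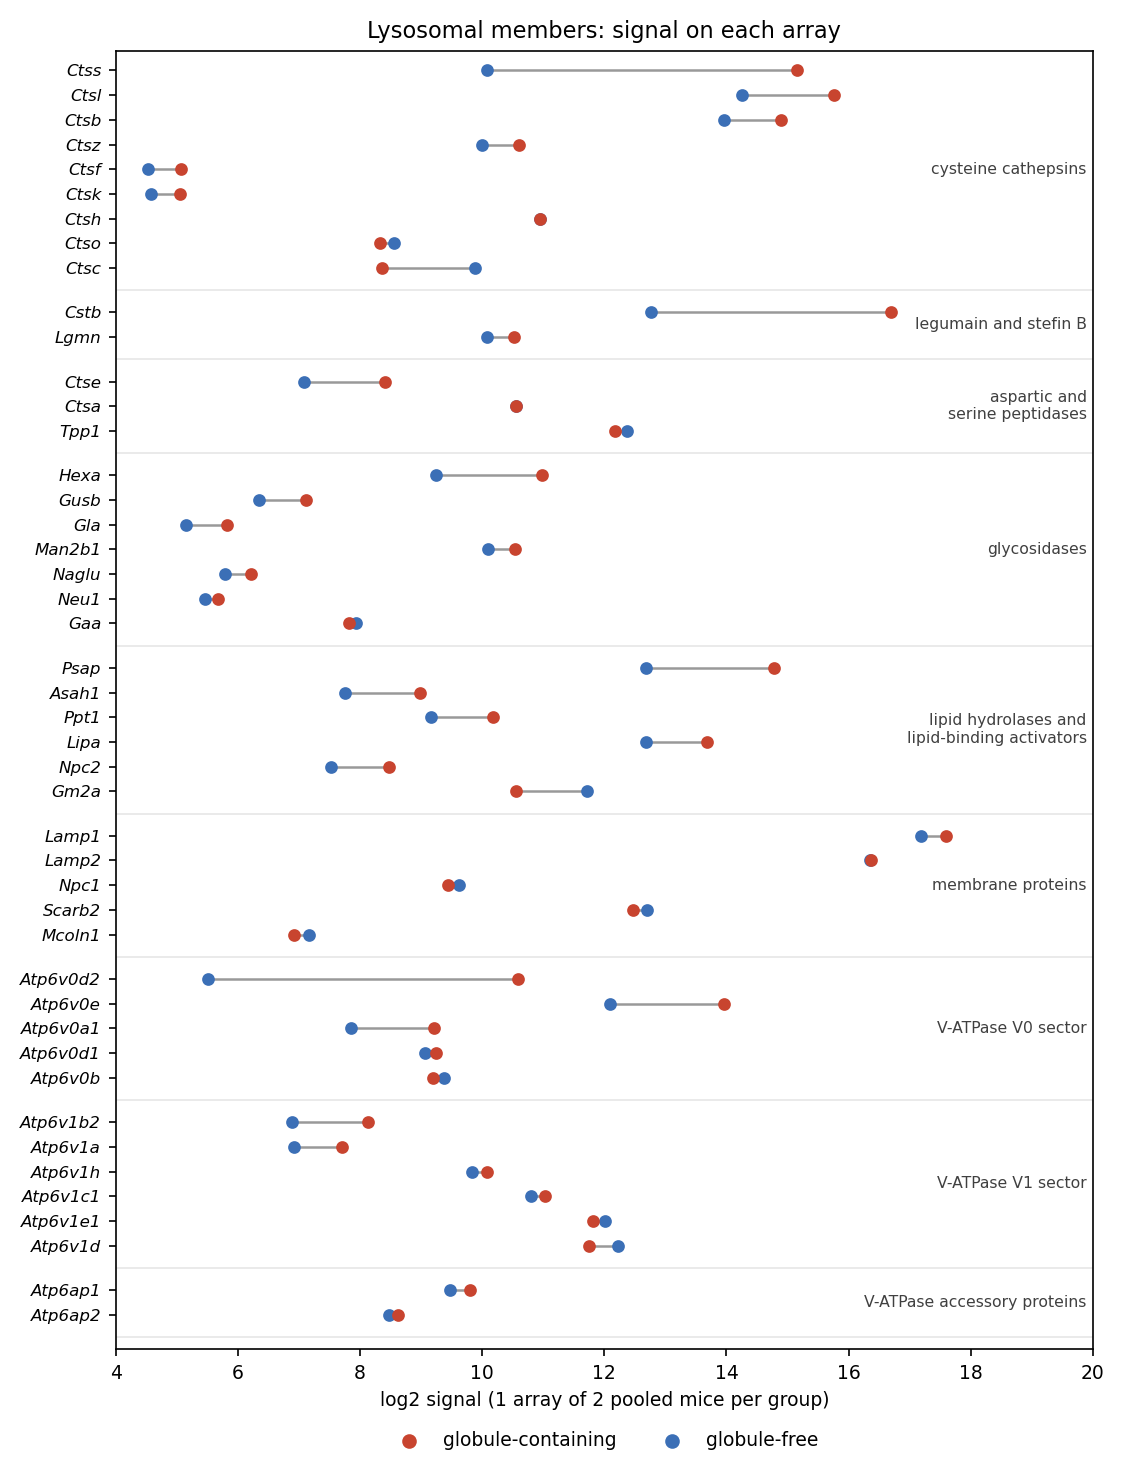
Log2 signal of 45 lysosomal members on the globule-containing (red) and globule-free (blue) array, 1 array of RNA from 2 pooled mice each, grouped by role; lines join both values of a gene, and distances along a line, not positions between genes, can be compared. The longest lines are those of Atp6v0d2 (10.58 against 5.50) and Ctss (15.15 against 10.07), while those of Ctsc and Gm2a run the other way.

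**Figure D2:**
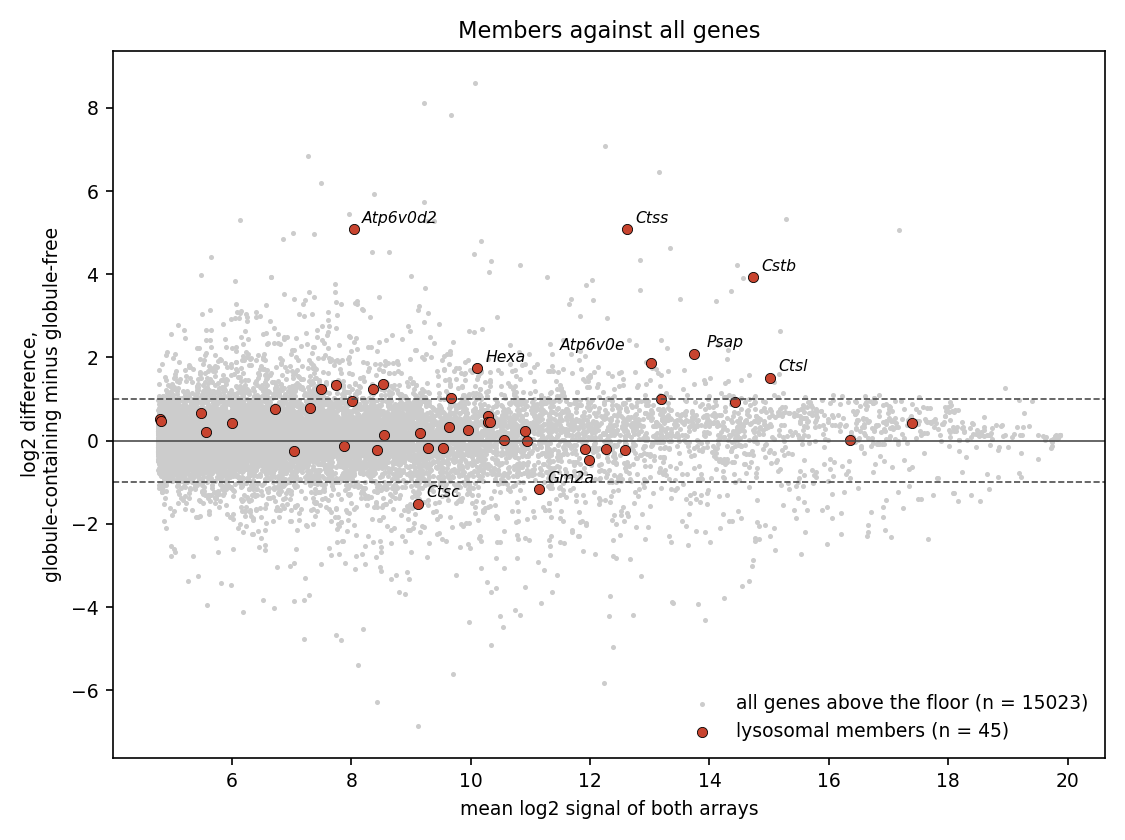
Log2 difference (globule-containing minus globule-free) against mean log2 signal for 15023 genes above the floor (grey) and 45 members (red); dashed lines mark 2-fold. Atp6v0d2 and Ctss stand 15th and 16th from the top of all genes, and most members lie between the dashed lines.

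The cysteine cathepsins ranged more widely than any other role group. Ctss, cathepsin S, the protease that trims the invariant chain in antigen-presenting cells, had a log2 signal of 15.15 with globules and 10.07 without. This is 33.8-fold higher and rank 16 of 15023 genes. Ctsl, cathepsin L, a broad endopeptidase of most cells, had 15.77 against 14.26 and was 2.85-fold higher. Ctsb, cathepsin B, its most familiar relative, had 14.90 against 13.97, or 1.90-fold higher. All 3 signals were higher in the areas with globules, by different amounts.

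Ctsc, cathepsin C, the dipeptidyl peptidase that activates serine proteases of leukocyte granules, went the other way. Its signals were 8.36 with globules and 9.88 without, 2.86-fold lower, and it was the lowest of all members. The carboxypeptidase Ctsz had 10.60 against 10.00, and the aminopeptidase Ctsh had 10.95 on both arrays. Ctso had 8.32 against 8.56. The 9 cysteine cathepsins had a median difference of 0.53, which is the value of Ctsf, a gene with a globule-free signal at background. With dim signals raised to the background level, Ctsf differed by 0.03 and Ctsk by 0.01, so this median rests on a dim gene. Of the 9, 2 (22.2%) passed 2-fold upwards and 1 (11.1%) downwards, beside 6.47% and 5.26% of all genes.

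Ctsk, cathepsin K, the collagen-degrading protease of osteoclasts, lies next to Ctss in the RefSeq gene order. It had 5.05 in globule-containing areas and 4.57 in globule-free areas, the latter below the background level of 5.04. Ctsf had 5.06 against 4.53, also with a globule-free signal at background. For both genes the fold that can be claimed is only at least 1.01 (Ctsk) and at least 1.02 (Ctsf). The gene on the other side of Ctss, Hormad1, had 4.66, at background, against 5.18. Neither neighbour had a difference near that of Ctss.

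Cstb and Lgmn belong to the same proteolytic system. Cstb, stefin B, the cytosolic inhibitor of cysteine cathepsins, had 16.69 with globules and 12.77 without. It was 15.2-fold higher, the third largest difference of any member and rank 36 of all genes. Lgmn, the asparaginyl endopeptidase that processes cathepsins, had 10.52 against 10.07. The secreted cystatin Cst3, from the list of other lysosome genes, had 11.33 against 10.45, 1.85-fold higher. The inhibitor was thus higher on the same array as Ctss, Ctsl and Ctsb, and its difference exceeded those of Ctsl and Ctsb.

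Of the aspartic and serine peptidases, Ctse differed most. Ctse, cathepsin E, an aspartic protease of endosomes, had 8.41 against 7.07 and was 2.53-fold higher. Tpp1, tripeptidyl peptidase, had 12.17 against 12.37. Ctsa, the carboxypeptidase that protects neuraminidase and beta-galactosidase in a complex, had nearly equal signals. The probe set shared by Ctsd and Ifitm10 had 9.38 against 8.06, 2.50-fold higher, which cannot be assigned to either gene. Neu1, the neuraminidase of the Ctsa complex, had 5.67 against 5.46, and the probe set shared by Glb1 and Tmppe had 5.80 against 5.86. Neither Ctsa nor Neu1 was 2-fold apart.

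Among glycosidases, 1 of 7 (14.3%) was at least 2-fold higher, beside 6.47% of all genes, and none was 2-fold lower. Hexa, the hexosaminidase alpha chain that acts on ganglioside GM2, had 10.98 with globules and 9.24 without, 3.35-fold higher. Gusb, beta-glucuronidase, had 7.11 against 6.35, 1.70-fold higher. Gla, alpha-galactosidase A, had 5.81 against 5.16, 1.57-fold higher. The values of Man2b1 (lysosomal alpha-mannosidase), Naglu (which degrades heparan sulfate), Neu1 and Gaa (the acid glucosidase that degrades glycogen) differed by 0.45, 0.43, 0.21 and -0.12 on the log2 scale. The group had a median of 0.45, with 6 of 7 above 0.

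The proteins of lipid degradation had 4 of 6 members 2-fold apart in either direction, more than any other role group. Of these, 3 (50%) were higher and 1 (16.7%) was lower, beside 6.47% and 5.26% of all genes. Psap, the precursor of the saposins that present sphingolipids to hydrolases, had 14.78 against 12.69 and was 4.27-fold higher. Asah1, acid ceramidase, had 8.98 against 7.75, 2.35-fold higher. Ppt1, palmitoyl-protein thioesterase, had 10.18 against 9.15, 2.03-fold higher. Lipa, lysosomal acid lipase, was just inside the threshold, with 13.68 against 12.69 and 1.99-fold. Npc2, the soluble cholesterol carrier, had 8.48 against 7.53, 1.93-fold higher.

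Gm2a, the activator that presents ganglioside GM2 for degradation, had the opposite difference from Hexa. Its signals were 10.55 with globules and 11.72 without, 2.25-fold lower, whereas Hexa was 3.35-fold higher. The group of 6 had a median difference of 1.01. Gm2a was its only member below 0.

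The 5 members of the lysosomal membrane were close on both arrays. None of the 5 was 2-fold apart, and the median difference was -0.18. This does not hold for all such proteins. Of 26 other membrane proteins and transporters above the floor, 6 (23.1%) were at least 2-fold higher, beside 6.47% of all genes. Those 26 had a median of 0.27. Lamp1 had 17.60 against 17.18 and Lamp2, its relative needed for fusion with autophagosomes, 16.37 against 16.36. Scarb2, the membrane protein LIMP-2, had 12.47 against 12.69. Mcoln1, the calcium channel TRPML1, had 6.92 against 7.16, and Npc1, the cholesterol exporter that receives cholesterol from Npc2, 9.44 against 9.63. The 27 measured hydrolases, activators and stefin B had a median of 0.60, with 22 of 27 above 0. The 32 other hydrolases and cofactors above the floor, outside the members, had a median of only 0.09, with 18 of 32 above 0. Of those 32, 3 (9.38%) were at least 2-fold higher, beside 6.47% of all genes. The difference between these groups was not tested.

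The V0 sector of the proton pump held the largest difference of all members, in the tissue-restricted form of 1 subunit. Atp6v0d2, the d2 form known from osteoclasts and macrophages, had 10.58 with globules and 5.50 without. It was 33.8-fold higher, rank 15 of all genes. Atp6v0d1, the d1 form of most cells, had 9.25 against 9.06, 1.14-fold higher. The log2 difference of d2 exceeded that of d1 by 4.89. The d subunit thus differed between the areas mainly in its d2 form.

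The a subunit, which sets where in the cell the pump sits, also has several forms. Atp6v0a1 had 9.21 against 7.85, 2.58-fold higher. Atp6v0a2, the form of the Golgi, had 8.48 against 8.01, and Tcirg1, the a3 form of lysosomes and osteoclasts, 6.80 against 6.09, 1.63-fold higher. Atp6v0a4, the kidney form, lay at background on both arrays. Atp6v0e, the small e subunit, had 13.97 against 12.09 and was 3.66-fold higher, while Atp6v0b, a proteolipid subunit, had 9.20 against 9.37. Of the 5 measured V0 members, 3 (60%) passed 2-fold upwards, beside 6.47% of all genes, and the median difference was 1.37.

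The V1 sector differed less. Atp6v1b2, a nucleotide-binding subunit, had 8.12 against 6.88 and was 2.37-fold higher, the only 1 of 6 (16.7%) past 2-fold, beside 6.47% of all genes. Atp6v1a, the catalytic subunit beside it, had 7.70 against 6.92, 1.72-fold higher. The stalk and regulatory subunits lay within 0.5 of 0 on the log2 scale: Atp6v1h at 0.25, Atp6v1c1 at 0.24, Atp6v1e1 at -0.21 and Atp6v1d at -0.47. The accessory proteins Atp6ap1 and Atp6ap2 differed by 0.33 and 0.14. Over all 13 measured pump members the median was 0.25, and it was 0.25 without Atp6v0d2 too.

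The remaining pump subunits, outside the members, had no value 2-fold apart. Atp6v1g1, a stalk subunit, had 9.34 against 10.04, 1.63-fold lower, Atp6v1f 5.57 against 5.22, Atp6v1e2 5.13 against 5.35 and Atp6v1g2 5.18 against 5.23. Atp6v0e2, Atp6v1b1, Atp6v1c2 and Atp6v1g3, forms of other tissues, lay at background on both arrays. Of these 11 subunits, 6 were above the floor, 3 above and 3 below 0. The pump as a whole was therefore not uniformly higher: its d2, e, a1 and B2 subunits were at least 2-fold higher, and the other measured ones lay within 2-fold or at background.

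**Figure D3:**
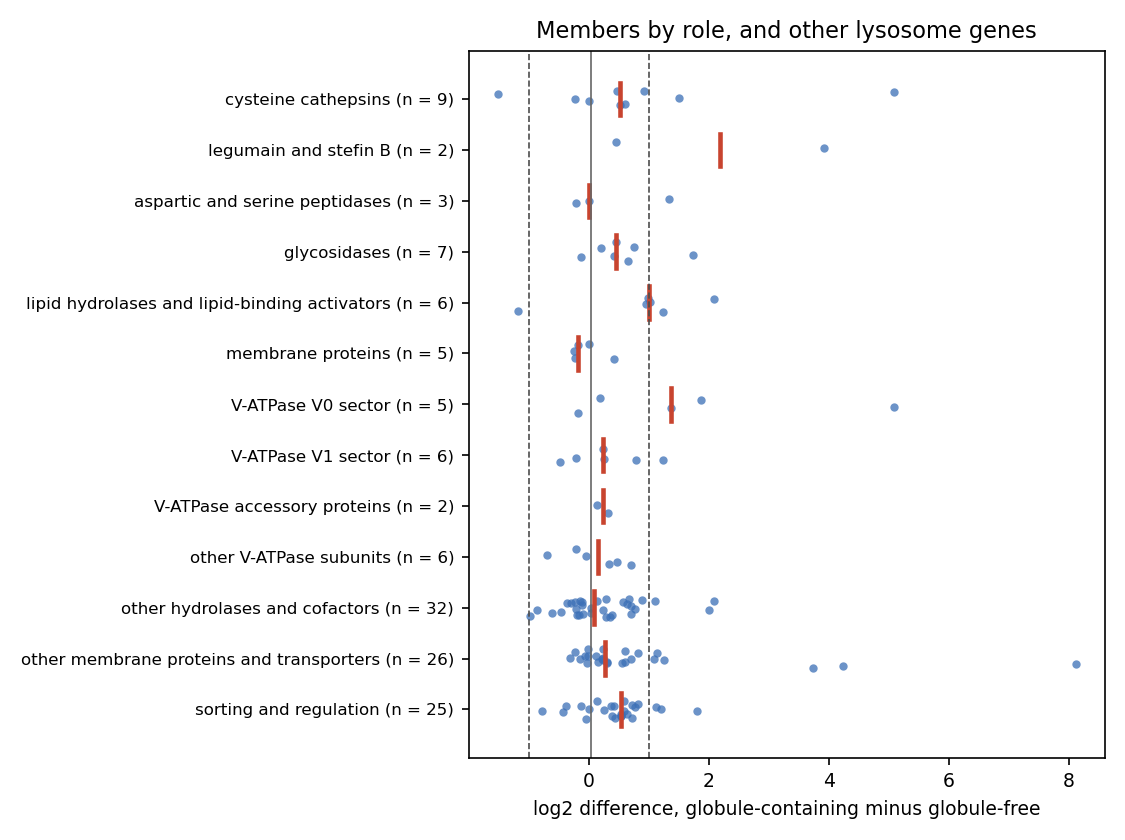
Log2 difference (globule-containing minus globule-free) of each gene above the floor, by role for the members and by list for the other lysosome genes; points are genes with vertical jitter, red bars are medians, dashed lines mark 2-fold and the solid line the median of all genes (0.05). The V0 sector (median 1.37) and lipid group (1.01) lie to the right, and the membrane proteins among the members (-0.18) lie near the line.

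Beyond the members, 109 other lysosome genes were listed, of which 102 were measured and 89 stood above the floor. Of the 89, 12 (13.5%) were higher by 2-fold or more, beside 6.47% of all genes, and 0 lower, beside 5.26%. Their median difference was 0.31, and 60 (67.4%) had a difference above 0, beside 54.5% of all genes. The largest differences were those of Gpnmb, a glycoprotein of stressed macrophage lysosomes, at 13.27 against 5.16 (277-fold), Cd63, a tetraspanin of late endosomes, at 12.95 against 8.72 (18.8-fold), and Cd68, a macrophage lysosomal glycoprotein, at 13.80 against 10.07 (13.3-fold). Siae, a sialic acid esterase, followed with 10.65 against 8.56, 4.25-fold higher. Cd63, Cd68 and Gpnmb are also on the macrophage lists below, as is Acp5. The 4 lowest were Hgsnat, which acetylates heparan sulfate, at -0.97, then Pla2g15, a lysosomal phospholipase, at -0.86, Lamtor4, a subunit of the Ragulator scaffold, at -0.78 and Atp6v1g1 at -0.70.

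The transcription factors of lysosomal genes were within 2-fold. Tfeb lay at background on both arrays, at 4.61 and 4.58. Tfe3 had 5.67 against 5.23 and Mitf, the related factor of osteoclasts and melanocytes, 6.51 against 5.92, a difference of 0.59. In the list of sorting and regulation, 3 of 25 (12%) passed 2-fold upwards, beside 6.47% of all genes. A difference above 0 was found for 20 of them (80%), beside 54.5% of all genes, and the median was 0.54 against 0.05. Grn, the progranulin precursor, had 10.84 against 10.46.

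Markers of other cell types differed between the arrays beside these genes, and their part in the members' differences was not tested. For each count of markers below, the shares of all genes above the floor were 6.47% at least 2-fold higher and 5.26% lower. In captured areas, fewer cells of a type and less RNA per cell cannot be told apart. Of 12 macrophage markers, 7 had a log2 difference of 2-fold or more upwards and none downwards. Among the 7, Fcgr1 and Cd14 had a globule-free signal at background. Their folds are only at least 1.77 (Fcgr1) and at least 4.96 (Cd14). The 12 markers had a median difference of 1.02, and a mean log2 signal of 9.40 against 7.83. Lyz2 had 17.96 against 12.62, but Adgre1, the F4/80 antigen, had 7.69 against 7.57. The 5 markers of resident Kupffer cells were all at least 2-fold lower (mean 6.81 against 9.15), among them Clec4f at 6.96 against 10.01. Of 9 measured genes of lipid-associated macrophages, 6 passed 2-fold upwards and none downwards (mean 8.90 against 6.16), while Trem2 had 5.30 against a background-level 4.68. Ctss, Atp6v0d2 and Cstb were high on that same array, as were the stellate and fibroblast markers and S100a8 given below. With 2 arrays, a shared direction cannot link a member to a cell type, and no such link was tested.

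Other genes of osteoclasts and multinucleate macrophages, the cells best known for Atp6v0d2 and Ctsk, were within 2-fold or at background. Dcstamp, Mmp9, Calcr, Tnfrsf11a and Oscar lay at background on both arrays. Acp5, tartrate-resistant acid phosphatase, had 9.86 against 10.00, Ocstamp 5.11 against a background-level 4.65 and Nfatc1 5.70 against 5.52.

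Stellate and fibroblast markers were at least 2-fold higher in 10 of 10 genes above the floor (mean 9.37 against 6.96), with Lrat at 9.10 against 5.64 and Col1a1 at 7.09 against 5.76. Neutrophil markers split: S100a8 had 11.34 against 5.42, 2 of 5 were at least 2-fold higher, and Ly6g, Csf3r and Cxcr2 differed by 0.27, 0.09 and 0.11 (mean of the list 7.82 against 5.63). Of endothelial markers 0 of 5 were 2-fold apart (mean 8.11 against 7.99), with Pecam1 at 6.56 against 6.48 and Stab2 at 8.56 against 8.69. Of cholangiocyte markers, 0 of 3 above the floor were 2-fold apart (mean 5.66 against 5.15). Krt19 had 5.11 and Epcam 5.77 against background-level 4.77 and 4.81, and Krt7 and Cftr lay at background on both arrays. The 4 measured dendritic and B cell markers were at background on both arrays.

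Hepatocyte markers, which check the labelled tissue, were all above background on both arrays, with a mean log2 signal of 17.48 with globules and 18.24 without. Of 11, 3 were lower by 2-fold or more and none higher: Cps1 was 5.17-fold lower, Cyp2f2 4.96-fold and Tat 2.65-fold. Alb and Trf were at the ceiling on both arrays, so no fold can be given for them, though both are in these counts and means. Apoa1 had 18.25 against 19.05 and Hnf4a 9.12 against 9.86.

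**Figure D4:**
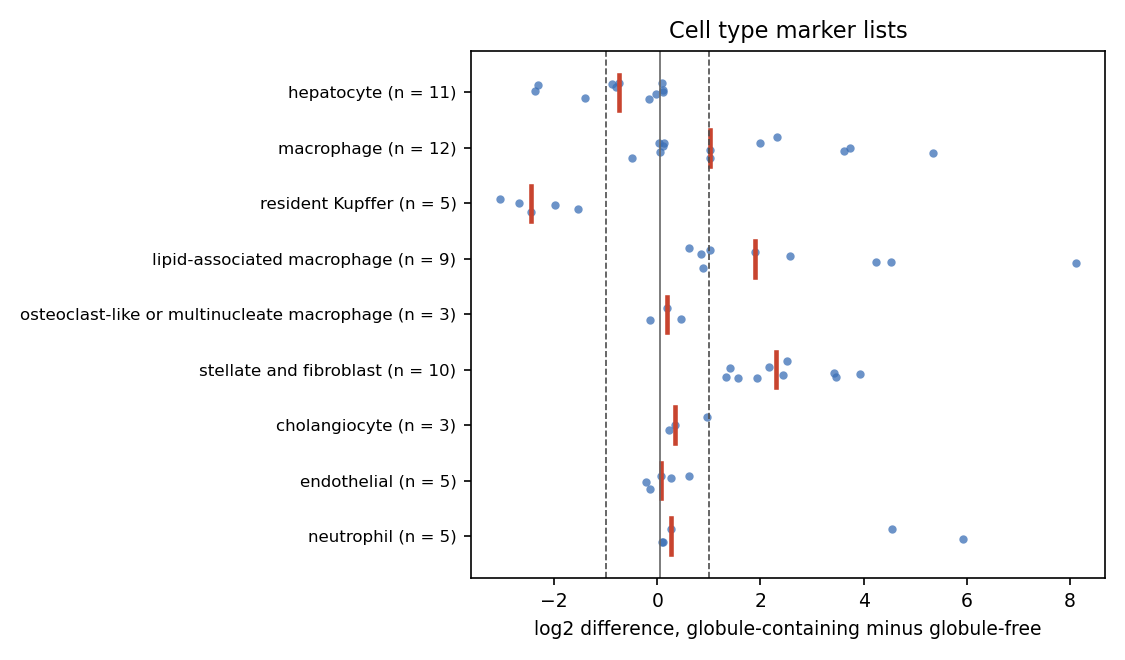
Log2 difference (globule-containing minus globule-free) of cell type marker genes above the floor, by list; points are genes with vertical jitter, red bars are list medians, dashed lines mark 2-fold and the solid line the median of all genes (0.05). Lipid-associated macrophage and stellate genes lie to the right, all 5 resident Kupffer genes to the left, and endothelial genes near 0.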

How the data were processed

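The deposited table holds log2 signals of 72688 probe sets on 2 arrays; per the submitters' processing notes, Transcriptome Analysis Console made them. Their background correction, normalization and genome build: not given in the sources used here. Per the labels' protocols, 50 ng of PicoPure RNA was amplified with NuGEN Ovation. The scale was read from the values, which run from 1.85 to 19.93. Probe sets were named from GEO's platform annotation: 30604 named 1 gene, 2146 several and 39938 none listed here. Entrez IDs of 22818 matched RefSeq (GRCm38.p6) symbols. Probe sets of 1 gene were averaged. The floor of 4.76 is the median mean signal of probe sets naming 1 gene. Background is the level that 95% of 1721 probe sets for olfactory or vomeronasal receptors stay below, 4.85 (globule-containing) and 5.04 (globule-free); a gene with 1 array there has its fold as "at least", from that level. Values within 0.2 of an array's maximum count as at the ceiling. Differences are globule-containing minus globule-free, with no test. The number of arrays limits the precision. Where 2 probe sets read 1 gene (177 genes above the floor), their differences lay a median of 0.17 apart, with a 90th percentile of 1.01.

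Members and lists were chosen with earlier results of these data known. All members are named whatever their values. Of the other lysosome genes, the 4 largest differences in each direction, the other pump subunits, Tfeb, Tfe3, Mitf, Grn and Gpnmb are named, and of the marker lists their defining genes. Cst3, Hormad1, Lyz2, Fcgr1, Cd14, Cps1, Cyp2f2, Tat and Trf were chosen after values or sequences were seen. So were the Ly6g, Csf3r, Cxcr2, Nfatc1, Krt7 and Cftr values, the remaining osteoclast genes and the 3 motifs. Alternatives changed the floor, scaling, fold, probe set choice and treatment of dim signals. Work used Python 3.11.15, numpy 2.4.6, pandas 2.3.3 and statsmodels 0.14.6.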

Additional observations from a re-analysis of the deposited data

How the results depend on the processing

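The count of members at least 2-fold higher was between 11 and 13 under the floors, scalings, probe set choices and raised dim signals tried, with 2 lower in each. With 1.5-fold as the threshold it was 19, beside 16% of all genes. Of the members named as 2-fold higher, only Ppt1 was below it after quantile normalization and loess correction; Lipa passed it with centred arrays. The median of the aspartic and serine peptidases was -0.034 after quantile normalization and -0.13 after loess correction, where Ctsa, Ctsh and Lamp2 changed sign and 31 of 45 members were above 0. Under each of these 2 corrections, 1 other lysosome gene, Hgsnat, was at least 2-fold lower; the cause was not tested. Loess correction moved 13 members by more than 0.17. Raised dim signals left Ctsf at 0.03 and Ctsk at 0.01. With Ctsd kept on its shared probe set, 13 of 47 members were higher. No paired analysis was possible because each group is 1 array. Signals at background give only bounds, and 2 arrays give no spread.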
